A study of Mus musculus with 100 samples.

Results

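The small leucine-rich proteoglycans examined here were 10 secreted matrix genes: Dcn (decorin), Bgn (biglycan), Aspn (asporin), Fmod (fibromodulin), Lum (lumican), Prelp, Omd (osteomodulin), Ogn (osteoglycin), Epyc (epiphycan) and Chad (chondroadherin). They were chosen by name, and all 10 were among the 17310 genes of the count table. Gene expression was measured by poly(A) RNA-seq of whole mouse knee joints with traces of adjacent soft tissue, in 100 libraries that form 21 groups of 4 or 5. The groups were STR/ort, C57BL/6 and MRL/MpJ joints taken before injury (0-day, 4 libraries a strain), and injured and uninjured contralateral joints of each strain at 1 day, at 1 week and at 2 weeks after injury. Mice were 10 weeks old at 0-day and when injured, so those of later time points were older when joints were taken. The injury was a rupture of the anterior cruciate ligament by a single load of 10 to 12 N on the right knee. The left joint of the injured animal served as the uninjured joint, so it shared the animal's systemic state and was not a sham. STR/ort mice develop osteoarthritis spontaneously, C57BL/6 is the common laboratory strain, and MRL/MpJ mice are known for strong tissue repair. All 2-week libraries belonged to a second experimental batch, so batch and the 2-week time point cannot be told apart, and levels are compared only within a batch.

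These proteins share a small core built of leucine-rich repeats, by which most of them bind collagen fibrils and set how thick the fibrils grow and how far apart they lie. Decorin, biglycan and asporin form class I, fibromodulin, lumican, PRELP and osteomodulin class II, osteoglycin and epiphycan class III, and chondroadherin a class of its own. Decorin and biglycan carry chondroitin or dermatan sulfate chains, fibromodulin and lumican carry keratan sulfate, and asporin and chondroadherin usually lack such chains. In joints they coat the collagen of cartilage, tendon, ligament, meniscus and bone, and fragments cleaved from them by proteases are found in osteoarthritic cartilage.

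Several of the genes lie side by side in the mm10 genome. Chromosome 10 held Dcn (97479500 to 97518163), Lum (97565501 to 97572703) and Epyc (97644068 to 97681908), all on the plus strand. Chromosome 13 held Aspn (49544443 to 49567565), Omd (49582462 to 49592612) and Ogn (49608015 to 49624501), also on the plus strand. On chromosome 1, Prelp (133910304 to 133930102, minus strand) lay next to Fmod (134037254 to 134048280, plus strand). Chad lay on chromosome 11 (94565047 to 94569127) and Bgn on chromosome X (73483601 to 73495936). Counts were taken over the annotated exons of each gene.

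Promoter sequences are shown for the genes whose injury responses in STR/ort were furthest apart at 1 week. Aspn and Ogn were higher in injured than in contralateral joints, and Chad was lower. Each run is the 250 bases before the RefSeq start of the gene on the plus strand of GRCm38.p6, and capitals mark matches, on either strand, to TATAAA (the TATA box core), CAGCTG (an E-box), TGTGGT (a RUNX core) and TGANTCA (an AP-1 site).
Aspn, chr13:49544193-49544442: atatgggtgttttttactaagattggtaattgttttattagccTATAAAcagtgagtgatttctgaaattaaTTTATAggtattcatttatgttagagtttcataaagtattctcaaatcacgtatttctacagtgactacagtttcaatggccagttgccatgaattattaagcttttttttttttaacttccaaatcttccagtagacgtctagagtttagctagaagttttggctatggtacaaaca
Ogn, chr13:49607765-49608014: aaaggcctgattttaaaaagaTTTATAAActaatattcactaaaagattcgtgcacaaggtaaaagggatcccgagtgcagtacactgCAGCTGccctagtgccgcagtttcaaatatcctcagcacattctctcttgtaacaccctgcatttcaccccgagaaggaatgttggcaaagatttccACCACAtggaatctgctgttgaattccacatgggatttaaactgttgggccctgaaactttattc
Chad, chr11:94564797-94565046: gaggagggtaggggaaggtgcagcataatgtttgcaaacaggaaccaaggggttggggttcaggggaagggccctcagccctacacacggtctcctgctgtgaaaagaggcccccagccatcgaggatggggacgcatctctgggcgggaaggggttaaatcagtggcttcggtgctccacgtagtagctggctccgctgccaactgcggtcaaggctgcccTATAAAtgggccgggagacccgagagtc
The Aspn run held a TATAAA match 207 and another 178 bases before the start. The Ogn run held overlapping matches to TATAAA at 229 and 227 bases, CAGCTG at 162 bases and TGTGGT at 65 bases before the start. In Chad the only match was TATAAA, 28 bases before the start. Of 32851 promoter windows of this kind, 12.4% held TATAAA, 13% CAGCTG, 14% TGTGGT and 6.75% TGANTCA, so each of these short motifs is common.

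Library totals ranged from 6182016 to 20986027 counts (median 10582591.5). The sum of 9 skeletal muscle genes, among them Acta1, Ckm and Myh4, ranged from 16279 to 138202 CPM (counts scaled to the size of the library) over libraries, and its values are given beside the results it moved with. In 4 libraries the sum was more than 1.5 times that of the next library of the group. These were C57BL/6 1-day uninjured replicate 1 (96444 CPM, the others 41376 to 56587), STR/ort 1-day injured replicate 5 (48633 CPM, the others 19164 to 27877), STR/ort 1-week uninjured replicate 2 (62107 CPM, the others 32421 to 37088) and MRL/MpJ 2-week injured replicate 4 (138202 CPM, the others 63844 to 77849). Of the marker lists for cartilage, tendon, bone, synovium, muscle, fat, marrow, macrophages and endothelium, no gene was at 0 in all libraries of a group. In whole joints, fewer cells of a type and less RNA per cell cannot be told apart. No label says that libraries of a group came from separate animals except at 2 weeks, so p-values elsewhere measure the spread between these libraries.

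Before injury, the order of the 10 genes by level per length was the same in all 3 strains. On the scale of CPM per kilobase of exon, Dcn was highest with 454 ± 36.5 in MRL/MpJ, 969 ± 130 in C57BL/6 and 979 ± 134 in STR/ort (SD, n = 4 libraries each). Bgn followed with 247, 758 and 628 CPM per kilobase in the same order of strains, then Chad (140, 345 and 201), Lum (79.7, 182 and 175), Fmod (55.8, 166 and 140) and Prelp (38.0, 108 and 103). The lower end was Aspn (22.6, 66.2 and 64.0), Ogn (21.6, 52.8 and 33.0), Omd (9.94, 30.5 and 17.5) and Epyc (4.84, 13.3 and 8.97). Decorin, biglycan and chondroadherin were thus the most abundant of these transcripts, and epiphycan, a product of growth plate cartilage, the rarest. Neighbours whose libraries overlapped in this order were Aspn and Ogn in MRL/MpJ, Dcn and Bgn, Lum and Fmod, and Aspn and Ogn in C57BL/6, and Chad, Lum, Fmod and Prelp in a row in STR/ort.

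**Figure D1:**
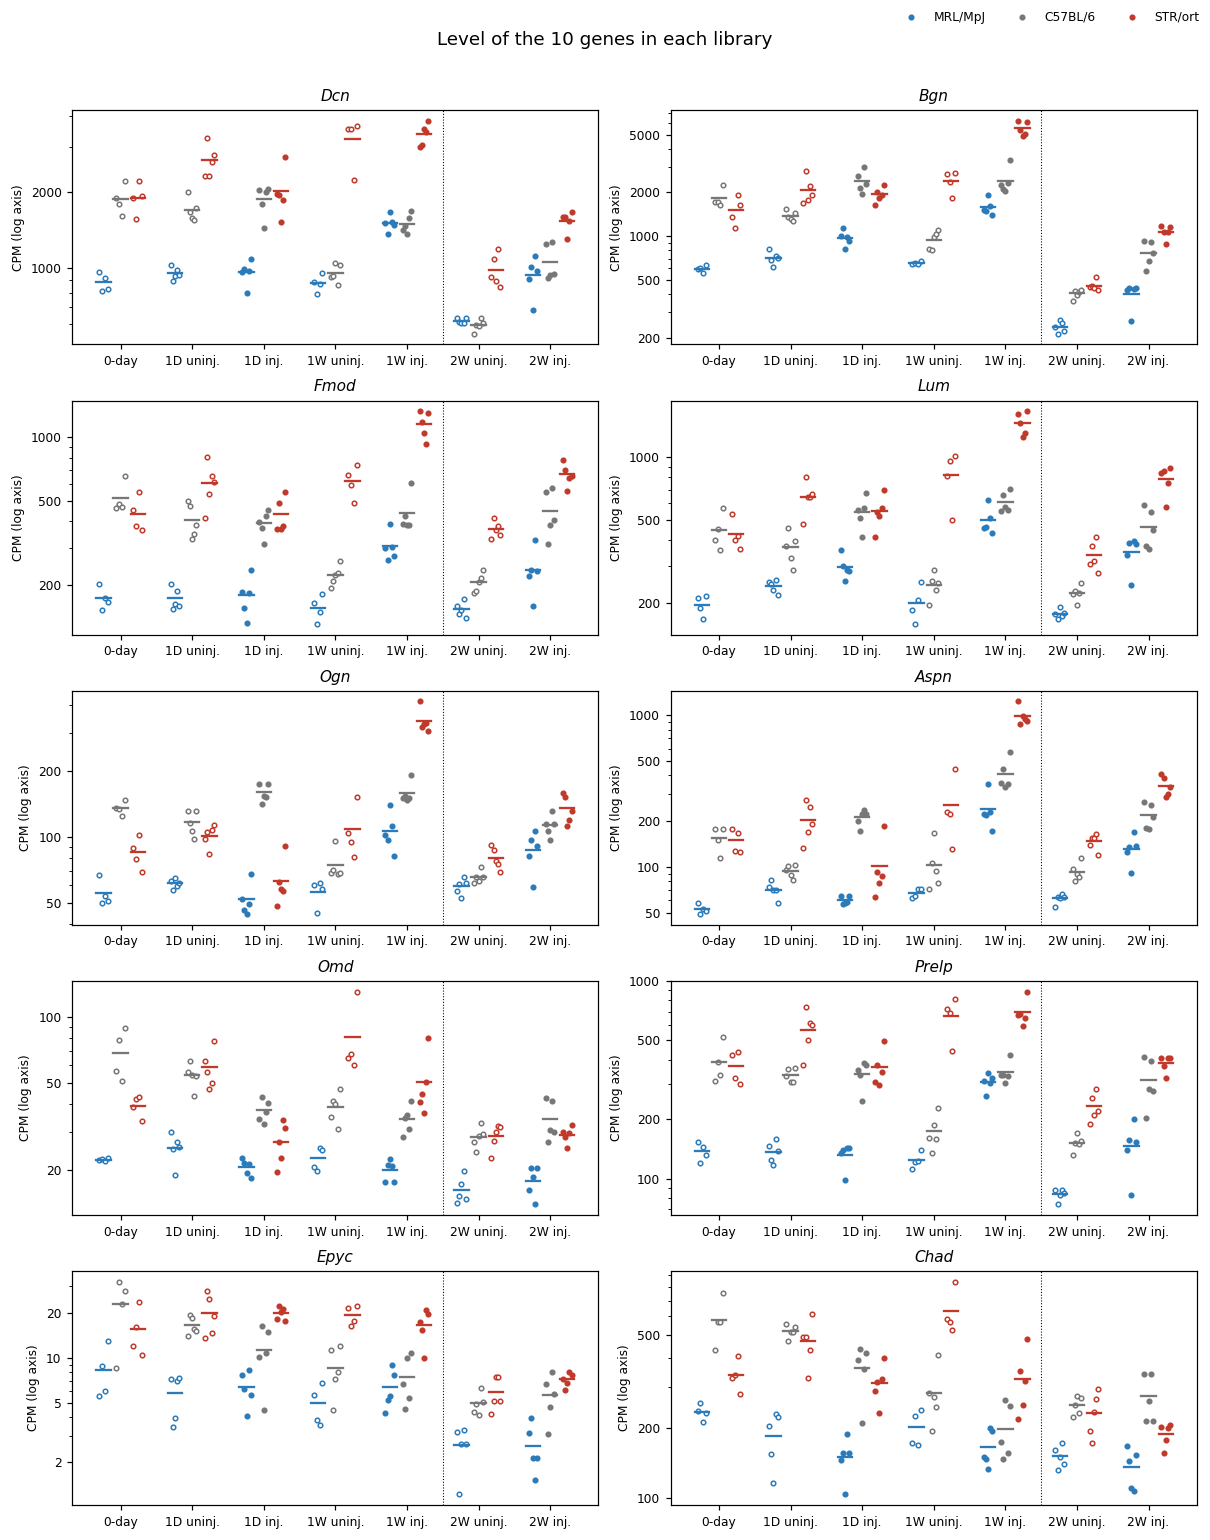
Level of each of the 10 genes in each of the 100 libraries, in CPM on a log axis, by strain and time. Open points are uninjured joints, filled points injured joints, bars are group means, and the dotted line sets off the 2-week libraries of the second batch. Aspn in STR/ort injured joints lay between 63.0 and 185 CPM at 1 day and between 871 and 1226 CPM at 1 week.

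MRL/MpJ joints had the lowest levels of these genes before injury. Dcn was at 965, 815, 912 and 830 CPM in MRL/MpJ, at 1893, 1796, 1612 and 2216 CPM in C57BL/6, and at 1901, 1567, 2201 and 1926 CPM in STR/ort. The MRL/MpJ libraries lay below all libraries of the other strains, whose values overlapped. A gene was called changed at an adjusted p under 0.05 and a fold above 1.5 in edgeR's quasi-likelihood test with Benjamini-Hochberg adjustment over all 17310 genes. By this rule all 10 genes were higher in C57BL/6 than in MRL/MpJ, where 9.64% of all genes tested were called higher and 6.26% lower. The log2 fold changes ran from 1.14 ± 0.11 (SE) for Dcn to 1.66 ± 0.14 for Bgn and 1.66 ± 0.15 for Omd, with adjusted p from 3.44e-08 for Bgn to 0.00167 for Epyc. With RUVg of 2 factors, which removes unwanted variation estimated from control genes, 1 of the 10 was called, Bgn at 1.07, where 1.08% of all genes were higher and 0.601% lower, and Epyc came to -1.27. In STR/ort against MRL/MpJ, 8 genes were higher and none lower, against 8.34% and 6.44% of all genes. The exceptions were Epyc (0.94 ± 0.36, adjusted p = 0.0522) and Chad (0.53 ± 0.13, adjusted p = 0.00482), which was past the p threshold and under the fold. The Ogn difference (0.61 ± 0.11) dropped under the fold without STR/ort replicate 3 (0.52) and without MRL/MpJ replicate 2 (0.57) or 4 (0.58). Over all single libraries left out, 7 to 10 genes were higher in STR/ort.

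STR/ort and C57BL/6 differed in 3 of the 10 genes before injury, all lower in STR/ort, where 5.99% of all genes were called lower and 7.82% higher. Chad was at 328, 336, 405 and 280 CPM in STR/ort and at 431, 566, 567 and 754 CPM in C57BL/6. These libraries did not overlap, and the log2 fold change was -0.82 ± 0.13 (adjusted p = 0.000115). Omd, which was first found in bone and binds hydroxyapatite, differed by -0.84 ± 0.14 (adjusted p = 0.000129), and Ogn by -0.71 ± 0.11 (adjusted p = 5.91e-05). The other 7 genes did not pass, Bgn coming closest by p at -0.31 ± 0.13 (adjusted p = 0.0731), which was also under the fold. With RUVg of 2 factors none of the 10 was lower and 2 were higher in STR/ort, Lum (0.72) and Prelp (0.82), against 2.23% and 1.7% of all genes in that fit.

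The muscle content of the 0-day libraries also differed between strains, C57BL/6 being lowest. The sum of the 9 muscle genes was 38508 to 62376 CPM in C57BL/6, 84065 to 102683 CPM in MRL/MpJ and 88687 to 102283 CPM in STR/ort. With this sum as a covariate, an alternative chosen after seeing the data, none of the 3 differences between STR/ort and C57BL/6 was called: Chad came to 0.14 (adjusted p = 0.854), Omd to 0.0 (adjusted p = 1) and Ogn to -0.54 (adjusted p = 0.367). C57BL/6 then exceeded MRL/MpJ in 5 genes, Bgn, Dcn, Fmod, Aspn and Ogn, against 2.33% of all genes. For STR/ort against C57BL/6, 1.15% of all genes were lower with the covariate. The C57BL/6 sums did not overlap those of either other strain, so the covariate cannot tell muscle content from strain in these 2 comparisons. STR/ort and MRL/MpJ had overlapping muscle sums, and the 8 genes called between them were all called with the covariate too, with Bgn at 1.35 and Dcn at 1.11 in either fit, and Epyc (0.94, adjusted p = 0.0175) was added. With RUVg of 2 factors Ogn (0.36) and Omd (0.47) dropped under the fold. Other tissues did differ between these strains, 6 of 9 synovium genes (sum 2860 to 6566 in STR/ort and 1275 to 1673 CPM in MRL/MpJ) and 4 of 5 tendon genes (501 to 806 against 283 to 388 CPM) being higher in STR/ort. Cartilage genes also differed, 10 of 11 being higher in C57BL/6 than in MRL/MpJ and 6 of 11 lower in STR/ort than in C57BL/6, and all 5 tendon genes were higher in C57BL/6 than in MRL/MpJ. The part of tissue proportions in the strain differences was not tested.

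**Figure D2:**
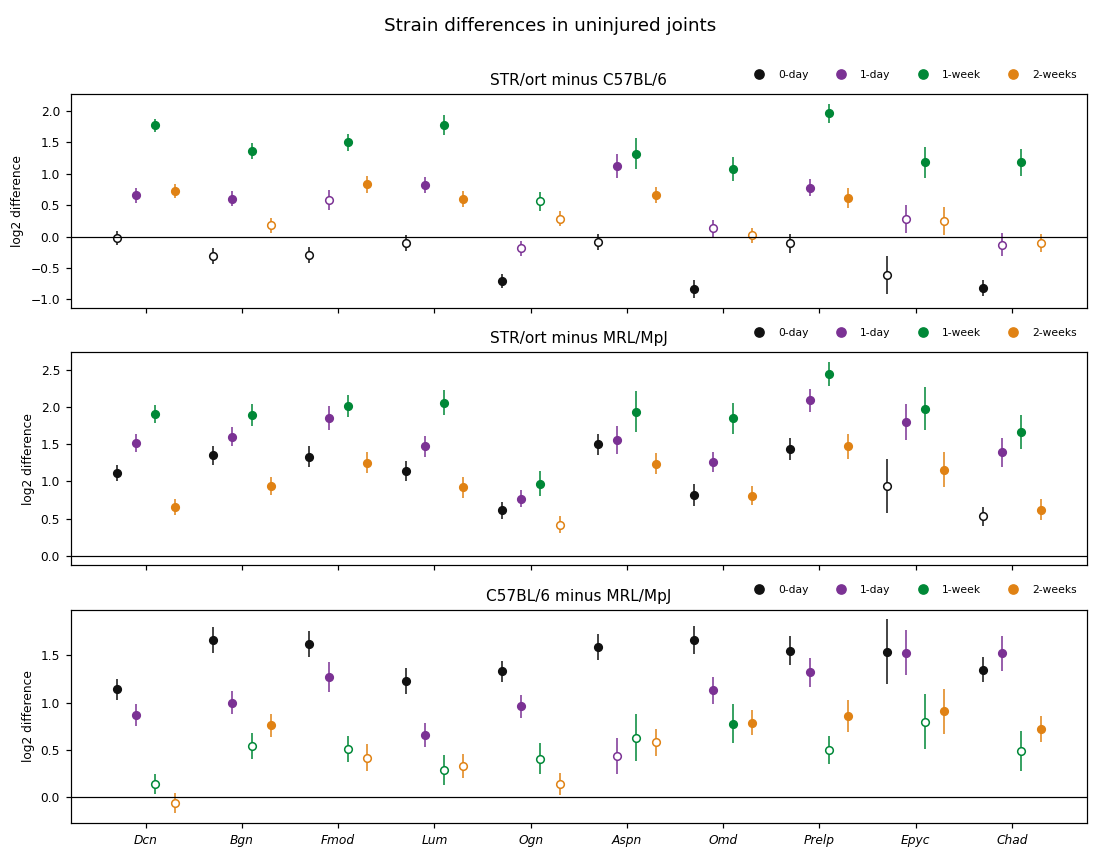
Log2 fold change (± SE) of each gene between strains in uninjured joints, before injury and in contralateral joints at 1 day, at 1 week and at 2 weeks. Filled points passed an adjusted p of 0.05 and a fold of 1.5, and open points did not. STR/ort minus MRL/MpJ reached 2.45 for Prelp at 1 week.

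One day after injury the strains went different ways. In MRL/MpJ none of the 10 genes was called, against 1.53% of all genes higher and 0.497% lower. By unadjusted p under 0.05 there were 2, and DESeq2 called 0. Bgn had the largest change there (0.48 ± 0.12, adjusted p = 0.0191), under the fold of 1.5. In C57BL/6, 2 genes rose and none fell, against 4.26% of all genes higher and 1.34% lower. The count of genes lower was 3 without C57BL/6 injured replicate 2 and 1 without uninjured replicate 4. Bgn, which is released from injured matrix and signals through Toll-like receptors, was at 2583, 2135, 1966, 2995 and 2292 CPM in injured C57BL/6 joints and at 1532, 1363, 1319, 1276 and 1439 CPM in uninjured ones. Every injured library exceeded every uninjured one, with a log2 fold change of 0.79 ± 0.12 (adjusted p = 2.38e-05). Without C57BL/6 uninjured replicate 1 the same 2 genes were called, Bgn (0.81) and Aspn, and with RUVg of 2 factors 4 were, against 5.35% of all genes. Tissue markers moved in these joints too: 5 of 9 synovium genes were higher and 1 lower (sum 3275 to 4562 in injured and 1947 to 2598 CPM in uninjured joints), 2 of 5 tendon genes higher (1143 to 1671 against 611 to 1028 CPM), 2 of 6 macrophage genes higher, 3 of 11 cartilage and 2 of 6 fat genes lower, and no marrow gene was called although its sums did not overlap (4985 to 6270 against 6868 to 9210 CPM). Their part in the changes was not tested. In STR/ort no gene rose and 5 fell, Ogn, Aspn, Omd, Prelp and Chad, against 1.61% of all genes higher and 2.7% lower.

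Asporin, which binds collagen and TGF-beta, changed in opposite directions at 1 day. In C57BL/6 it was at 201, 172, 224, 237 and 222 CPM in injured joints and at 95.7, 101, 88.2, 81.5 and 103 CPM in uninjured joints, a rise of 1.17 ± 0.19 on the log2 scale (adjusted p = 3.01e-05). In STR/ort it was at 63.0, 91.7, 78.7, 87.1 and 185 CPM in injured joints and at 133, 273, 169, 248 and 190 CPM in uninjured joints. The C57BL/6 groups did not overlap, while in STR/ort injured replicate 5 lay among the uninjured libraries. The STR/ort log2 fold change was -1.03 ± 0.19 (adjusted p = 0.000316), and -1.34 ± 0.14 (adjusted p = 6.09e-08) without that replicate. The uninjured reference joints also moved apart, with mean Aspn in C57BL/6 at 154 CPM at 0-day and 94.0 CPM at 1 day. In STR/ort these means were 149 and 203 CPM, and neither difference was called.

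Osteomodulin and asporin had the largest 1-day changes in STR/ort. Omd was at 19.7, 26.8, 22.8, 34.0 and 31.2 CPM in injured joints and at 63.0, 56.1, 46.7, 50 and 77.7 CPM in uninjured joints, with no overlap and a log2 fold change of -1.15 ± 0.14 (adjusted p = 3.76e-07). After Aspn came Ogn with -0.71 ± 0.12 (adjusted p = 0.000152), Prelp with -0.65 ± 0.14 (adjusted p = 0.00252) and Chad with -0.61 ± 0.18 (adjusted p = 0.0269). Without injured replicate 5 Aspn (-1.34) was past Omd (-1.18) and Fmod was called as well (-0.59 ± 0.16, adjusted p = 0.0104), giving 6, and without injured replicate 3 the count was 3. Chad was no longer called without injured replicate 1, 2 or 3 or uninjured replicate 1 or 5 (-0.61 to -0.50), and Prelp without injured replicate 3 (-0.58) or uninjured replicate 2 (-0.53). Of the 9 muscle genes, 6 were lower after injury in these joints, and the sum of all 9 was 19164 to 48633 CPM in injured and 35320 to 61176 CPM in uninjured STR/ort joints. With the muscle sum as a covariate 3 genes were called lower, Chad, Aspn (-0.66 ± 0.18) and Omd (adjusted p = 2.31e-06), while Prelp (-0.55, adjusted p = 0.0369) and Ogn (-0.45, adjusted p = 0.00921) missed by the fold alone, and with RUVg of 2 factors the count was also 3, against 1.02% and 1.45% of all genes. In these joints 4 of 6 fat and 2 of 5 tendon genes were also lower, and of 9 synovium genes 3 were higher and 2 lower, a part that was not tested.

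The difference between strains at 1 day was tested as an interaction, the injury change of a strain minus that of another. For STR/ort against C57BL/6, 4 of the 10 genes passed, where 2.66% of all genes did. Aspn differed by -2.19 ± 0.26 (adjusted p = 3.26e-06), Ogn by -1.17 ± 0.17 (adjusted p = 5.77e-05), Bgn by -0.91 ± 0.17 (adjusted p = 0.00136) and Lum by -0.81 ± 0.19 (adjusted p = 0.00946). All 4 were called with the muscle covariate too, and without STR/ort injured replicate 5 Dcn (-0.69), Prelp (-0.81) and Omd (-0.67) passed as well. Prelp (-0.68, adjusted p = 0.0515) and Omd (-0.62, adjusted p = 0.0603) lay near the threshold. Both passed with RUVg of 2 factors, DESeq2 and the replicate block, Prelp also with filterByExpr (adjusted p = 0.0465), and Omd also with RUVg of 1 factor (adjusted p = 0.0198) and the muscle covariate (-0.66, adjusted p = 0.0418). For C57BL/6 against MRL/MpJ only Aspn passed, at 1.38 ± 0.27 (adjusted p = 0.0123), where 0.318% of all genes did. Ogn (0.68, adjusted p = 0.0685) passed there with RUVg of 2 factors (adjusted p = 0.00953), DESeq2 (0.0208), the replicate block (0.0216) and the muscle covariate (0.00675). For STR/ort against MRL/MpJ none passed with edgeR, where 0.162% of all genes did, although 8 had an unadjusted p under 0.05. Omd missed narrowly (-0.88, adjusted p = 0.0508), and it passed with DESeq2 (adjusted p = 0.00825), RUVg of 1 or 2 factors (0.0218 and 0.0263), housekeeping scaling (0.0375), the muscle covariate (0.0341) and the replicate block (0.0266), and without C57BL/6 uninjured replicate 2 or 4, STR/ort injured replicate 4 or STR/ort uninjured replicate 3. Without STR/ort injured replicate 5, Aspn, Ogn and Omd were called in this last comparison. Without C57BL/6 uninjured replicate 1, Dcn passed as well for STR/ort against C57BL/6 (-0.60) and Ogn for C57BL/6 against MRL/MpJ (0.72). The 3 interactions share groups and are not independent of each other.

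**Figure D3:**
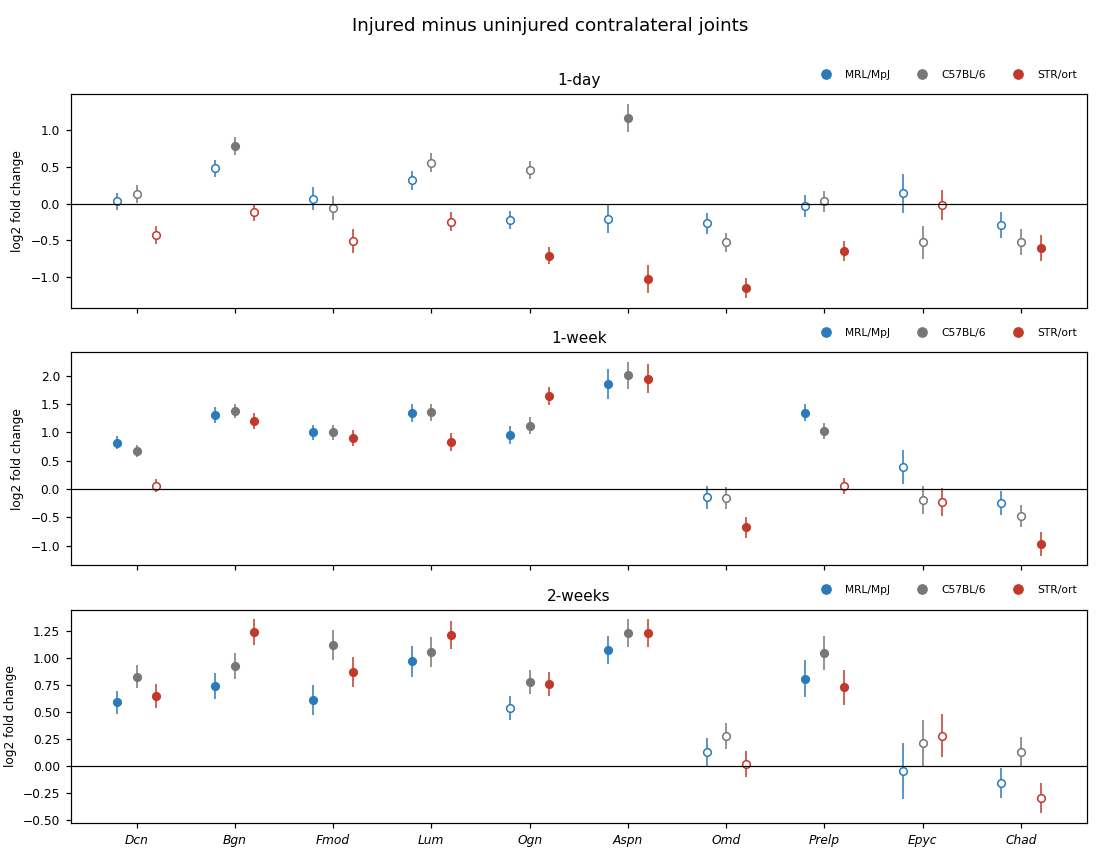
Log2 fold change (± SE) of each gene between injured and uninjured contralateral joints, by strain, at 1 day, at 1 week and at 2 weeks. Filled points passed an adjusted p of 0.05 and a fold of 1.5, and open points did not. Aspn stood between 1.86 and 2.01 in the 3 strains at 1 week and between 1.08 and 1.23 at 2 weeks.

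At 1 week 7 of the 10 genes were higher in injured than in contralateral joints of MRL/MpJ and of C57BL/6, and 5 in STR/ort. The same 7 genes, Dcn, Bgn, Aspn, Fmod, Lum, Prelp and Ogn, rose in MRL/MpJ and in C57BL/6 and none fell, against 2.93% of all genes higher and 0.191% lower in MRL/MpJ and 4.75% and 1.07% in C57BL/6. In STR/ort 5 genes rose, Bgn, Fmod, Lum, Ogn and Aspn, and 2 fell, Omd and Chad, against 5.67% and 3.54% of all genes. The median log2 fold change of the 10 genes was 0.98 in MRL/MpJ, 1.01 in C57BL/6 and 0.44 in STR/ort, beside -0.006, -0.012 and -0.033 over all genes. Without STR/ort uninjured replicate 2 the same 5 and 2 genes were called in STR/ort, with Aspn at 1.88, Ogn at 1.58, Chad at -1.02 and Omd at -0.76. The C57BL/6 contralateral joints of this week were themselves below 0-day in 9 of the 10 genes. In injured C57BL/6 joints the mean CPM was under the 0-day mean for Dcn (1499 against 1879), Fmod (437 against 518) and Prelp (346 against 389). It was above the 0-day mean for Bgn, Lum, Ogn and Aspn, and injured joints were not tested against 0-day.

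Of the class I genes, Aspn had the largest 1-week change in each strain. In MRL/MpJ it was at 222, 218, 351, 229 and 173 CPM in injured and at 62.2, 64.0, 71.2 and 71.3 CPM in uninjured joints. In C57BL/6 it was at 354, 441, 337, 349 and 568 CPM in injured and at 71.9, 106, 166, 94.2 and 78.2 CPM in uninjured joints. In STR/ort it was at 1226, 871, 978, 943 and 917 CPM in injured and at 229, 222, 131 and 438 CPM in uninjured joints. No injured library overlapped the uninjured ones of its strain, and the rises were 3.63-fold, 4.04-fold and 3.86-fold (log2 1.86 ± 0.26, 2.01 ± 0.24 and 1.95 ± 0.26, adjusted p 1.07e-05, 3.38e-07 and 1.66e-06). Bgn rose by 1.31 ± 0.14, 1.38 ± 0.13 and 1.20 ± 0.14 in MRL/MpJ, C57BL/6 and STR/ort, reaching 4900 to 6208 CPM in injured STR/ort joints.

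Decorin was the class I gene whose injury change at 1 week differed between STR/ort and MRL/MpJ. It rose by 0.82 ± 0.12 in MRL/MpJ (adjusted p = 1.2e-05) and by 0.67 ± 0.11 in C57BL/6 (adjusted p = 3.93e-05). In STR/ort it was at 3014, 3061, 3550, 3439 and 3812 CPM in injured joints and at 3535, 3540, 2222 and 3651 CPM in uninjured ones, which overlapped (0.06 ± 0.11, adjusted p = 0.778). The interaction of STR/ort against MRL/MpJ was -0.76 ± 0.16 (adjusted p = 0.0129), and against C57BL/6 it missed the threshold (-0.61 ± 0.16, adjusted p = 0.061). This second interaction of Dcn passed with RUVg of 1 or 2 factors (adjusted p = 0.0293 and 0.0219), with DESeq2 (adjusted p = 0.0149), with the muscle covariate (adjusted p = 0.019), with the replicate block, and without STR/ort injured replicate 5 (-0.66) or uninjured replicate 3 (-0.75). The uninjured STR/ort joints alone exceeded the injured joints of MRL/MpJ, at 1369 to 1660 CPM, and of C57BL/6, at 1359 to 1686 CPM. Dcn in these uninjured STR/ort joints was itself above 0-day (log2 0.75, called). Both the injured and the uninjured STR/ort joints of this week lay above the 0-day range of 1567 to 2201 CPM.

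In class II, Fmod and Lum rose in all 3 strains and Prelp in 2 of them. Fmod rose by 1.00 ± 0.14 in MRL/MpJ, 1.00 ± 0.13 in C57BL/6 and 0.90 ± 0.14 in STR/ort, and Lum by 1.35 ± 0.16, 1.36 ± 0.15 and 0.83 ± 0.16. Prelp, which anchors collagen to basement membranes through heparan sulfate, rose by 1.35 ± 0.15 in MRL/MpJ and 1.02 ± 0.14 in C57BL/6. In STR/ort Prelp was at 675, 678, 591, 646 and 884 CPM in injured joints and at 725, 687, 442 and 814 CPM in uninjured ones (0.05 ± 0.14, adjusted p = 0.834). The groups overlapped, and the interaction was -1.30 ± 0.20 against MRL/MpJ (adjusted p = 0.000809) and -0.96 ± 0.20 against C57BL/6 (adjusted p = 0.0134). These were 2 of 10 genes for STR/ort against MRL/MpJ, where 0.884% of all genes passed, and 1 of 10 against C57BL/6, where 0.491% did.

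Omd and Chad were lower in injured than in contralateral STR/ort joints at 1 week. Both were higher in these contralateral joints than at 0-day, Omd by 1.02 and Chad by 0.89 on the log2 scale. Injured joints held 36.3 to 79.8 CPM of Omd, against 33.5 to 43.1 CPM at 0-day. For Chad the ranges were 219 to 480 and 280 to 405 CPM, and injured joints were not tested against 0-day. Epyc was not called by injury in any strain at any time in the main fit. In C57BL/6 at 1 day it was called lower with the muscle covariate (-0.64, adjusted p = 0.0324) or without injured replicate 2 (-0.68). Chad, a cell-binding protein of cartilage matrix, was at 219, 351, 250, 319 and 480 CPM in injured and at 587, 566, 524 and 844 CPM in uninjured STR/ort joints. No injured library reached the uninjured range, and the log2 fold change was -0.97 ± 0.21 (adjusted p = 0.00122). Omd was at 40.9, 44.3, 36.3, 50.3 and 79.8 CPM against 65.1, 67.7, 60 and 130 CPM, which overlapped (-0.68 ± 0.19, adjusted p = 0.00969). Without uninjured replicate 4, whose 130 CPM was the highest value of Omd in its group, Omd was no longer called (-0.36, adjusted p = 0.146) and 1 gene was lower. In MRL/MpJ and C57BL/6 the changes were -0.25 ± 0.21 and -0.48 ± 0.20 for Chad and -0.15 ± 0.21 and -0.16 ± 0.19 for Omd, none of them called. The fall of Chad in C57BL/6 was called with RUVg of 1 or 2 factors (-0.68 and -0.73) and with the muscle covariate (-0.75 ± 0.18, adjusted p = 0.00471). The interactions of Chad and Omd missed the threshold (adjusted p from 0.29 to 0.554), except that of Chad for STR/ort against MRL/MpJ with the muscle covariate (-0.97 ± 0.25, adjusted p = 0.023) and those of both genes with the replicate number as a block, although the numbers were not taken to pair the C57BL/6 and MRL/MpJ joints of this week.

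The class III gene Ogn, secreted in bone, tendon and muscle, rose in all 3 strains. It was at 417, 318, 327, 331 and 306 CPM in injured and at 104, 94.5, 80.8 and 153 CPM in uninjured STR/ort joints, a 3.13-fold rise (log2 1.65 ± 0.16, adjusted p = 7.95e-09). In C57BL/6 the rise was 1.12 ± 0.15 and in MRL/MpJ 0.96 ± 0.16. The interactions were 0.52 ± 0.21 and 0.69 ± 0.22 and were not called (adjusted p = 0.303 and 0.125), so a difference between strains in the size of the Ogn rise was not shown, except that the second passed without STR/ort uninjured replicate 4 (0.91) or MRL/MpJ injured replicate 3 (0.81) and with the replicate block. For C57BL/6 against MRL/MpJ no interaction of the 10 genes passed with edgeR or DESeq2, none had an unadjusted p under 0.05, and 0% of all genes passed.

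Marker genes of other tissues moved with the 1-week changes. In STR/ort 8 of 9 muscle genes were lower (sum 16279 to 35639 CPM in injured and 32421 to 62107 CPM in uninjured joints), 6 of 10 bone genes and 3 of 6 fat genes were lower, and all 5 tendon genes were higher (sum 2295 to 3414 against 809 to 1444 CPM). Of 11 cartilage genes, 1 was higher and 1 lower, with summed levels of 3809 to 7440 and 5414 to 6904 CPM. Of 9 synovium genes in STR/ort, 3 were higher and 1 lower, 3 of 7 marrow genes were lower (3902 to 5953 against 6738 to 9575 CPM), and 1 of 5 endothelium genes was higher (345 to 440 against 247 to 302 CPM). In C57BL/6, 4 of 5 tendon genes were higher (sum 809 to 1165 against 314 to 498 CPM), 6 of 9 synovium genes were higher and 1 lower (2812 to 3167 against 1142 to 1583 CPM), and 3 of 6 fat, 2 of 9 muscle and 1 of 10 bone genes were lower. In MRL/MpJ no muscle, bone or fat gene was called, 4 of 5 tendon genes were higher (743 to 1119 against 252 to 366 CPM) and 6 of 9 synovium genes were higher (2820 to 3427 against 1566 to 1661 CPM). With the muscle covariate the 1-week falls in STR/ort came to -1.43 ± 0.21 for Chad and -0.88 ± 0.23 for Omd, both called. The part of the other tissues in these changes was not tested.

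At 2 weeks the 7 genes that had risen in MRL/MpJ and C57BL/6 at 1 week were higher again in injured joints of C57BL/6 and STR/ort, and 6 of them in MRL/MpJ. None of the 10 was lower. The shares of all genes called were 1.14% higher and 0.0173% lower in MRL/MpJ, 2.88% and 0.0693% in C57BL/6, and 4.34% and 0.318% in STR/ort. Aspn was at 125, 134, 90.9, 170 and 138 CPM in injured MRL/MpJ joints against 54.1 to 66.4 CPM in uninjured ones, a rise of 1.08 ± 0.13 (adjusted p = 1.69e-05). In C57BL/6 it was at 265, 181, 178, 254 and 213 CPM against 80.6 to 114 CPM, and in STR/ort at 407, 381, 287, 302 and 335 CPM against 120 to 165 CPM, rises of 1.23 ± 0.13 in each. The injured and uninjured libraries of Aspn did not overlap in any strain.

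Dcn and Prelp, which were not called in STR/ort at 1 week, rose there at 2 weeks by 0.65 ± 0.11 (adjusted p = 5.74e-05) and 0.73 ± 0.16 (adjusted p = 0.00184). Dcn was at 1587, 1598, 1299, 1534 and 1672 CPM in injured and at 922, 1090, 890, 1190 and 839 CPM in uninjured STR/ort joints. Bgn rose 2.36-fold and Lum 2.33-fold in STR/ort. Bgn and Lum rose by 0.93 ± 0.12 and 1.06 ± 0.14 on the log2 scale in C57BL/6 and by 0.74 ± 0.12 and 0.97 ± 0.14 in MRL/MpJ. Chad, Omd and Epyc were not called in any strain, Chad coming closest with -0.30 ± 0.14 in STR/ort (adjusted p = 0.169).

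The labels of the 2-week joints name the animal, so the injured and uninjured joints are pairs. With the animal as a block the MRL/MpJ count was 4, Dcn (0.57 ± 0.10) and Fmod (0.58 ± 0.13) dropping under the fold of 1.5, and leaving out MRL/MpJ injured replicate 4 gave the same count, with Dcn at 0.55 and Fmod at 0.49. Dcn also dropped under the fold without injured replicate 2 or 5 or uninjured replicate 3 or 4 (0.56 to 0.58), and Fmod without uninjured replicate 5 (0.57). No interaction of the 10 genes passed at 2 weeks with edgeR or DESeq2, with 1 gene at an unadjusted p under 0.05 in each. Of all genes, 0.0462% passed for STR/ort against C57BL/6, 0.451% for STR/ort against MRL/MpJ and 0% for C57BL/6 against MRL/MpJ. None of the 9 muscle genes was called by injury in any strain at this time. Of the 5 tendon genes, 3 were higher in MRL/MpJ (sum 173 to 384 in injured and 151 to 167 CPM in uninjured joints), 4 in C57BL/6 (333 to 495 against 158 to 210 CPM) and all 5 in STR/ort (566 to 748 against 253 to 363 CPM). Of the 9 synovium genes, 4, 4 and 5 were higher in MRL/MpJ, C57BL/6 and STR/ort. In STR/ort 3 of 11 cartilage genes (4384 to 6541 against 2685 to 4071 CPM) and 1 of 5 endothelium genes (356 to 382 against 297 to 319 CPM) were also higher. In C57BL/6 no marrow or macrophage gene was called, although the sums were lower without overlap (4696 to 5724 against 6246 to 7241 CPM and 1250 to 1431 against 1522 to 1702 CPM). The part of these tissues in the 2-week changes was not tested.

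From 1 day to 1 week 8 of the 10 genes were higher in injured STR/ort joints and none lower, against 13.9% of all genes called in either direction. All 5 tendon genes (sum 1135 to 1818 CPM at 1 day and 2295 to 3414 CPM at 1 week) and 2 of 9 synovium genes were higher too, and 5 of 10 bone genes were lower. No marrow or endothelium gene was called, although the sums did not overlap (marrow 6309 to 7503 and then 3902 to 5953 CPM, endothelium 280 to 317 and then 345 to 440 CPM), and the part of these tissues was not tested. Aspn was 9.74-fold higher (log2 3.28 ± 0.23, adjusted p = 5.27e-19) and Ogn 5.38-fold (2.43 ± 0.14, adjusted p = 2.78e-22), and without 1-day replicate 5 the log2 values were 3.61 and 2.59. Ogn was at 48.3, 61.9, 57.9, 56.4 and 90.4 CPM at 1 day, far below the 306 to 417 CPM at 1 week. In MRL/MpJ the 7 genes named above were higher, Aspn by 2.01 ± 0.22, against 3.11% of all genes. In C57BL/6 Aspn was higher (0.96 ± 0.21, adjusted p = 0.000704) and Chad lower (-0.88 ± 0.20, adjusted p = 0.000923), against 4.47% of all genes. Injured STR/ort joints at 1 week had the highest group mean among all groups of the first batch for Dcn, Bgn, Fmod, Lum, Ogn, Aspn and Prelp, those of Dcn and Prelp overlapping with the uninjured STR/ort joints of that week.

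**Figure D4:**
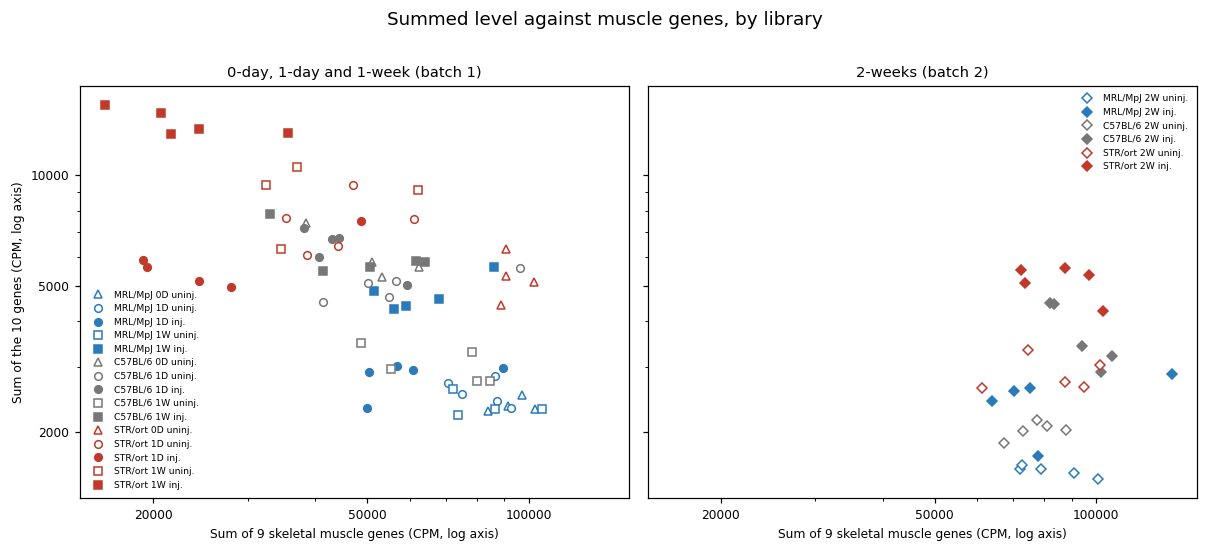
Summed level of the 10 genes against the summed level of the 9 muscle genes, in CPM, for each library, with the first batch and the 2-week batch in separate panels. Colours mark strains, open points uninjured and filled points injured joints. STR/ort 1-week injured libraries held 12946 to 15541 CPM of the 10 genes and 16279 to 35639 CPM of the muscle genes.

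The uninjured contralateral joints did not stay at their 0-day levels in 2 of the strains. Mice were also older at 1 week than at 0-day, so age and time after injury cannot be told apart here. In MRL/MpJ none of the 10 genes was called at 1 day or at 1 week with edgeR or DESeq2 and none had an unadjusted p under 0.05, against 0.0924% and 0% of all genes. In C57BL/6 none was called at 1 day with either tool, with 4 at an unadjusted p under 0.05 and 0.0693% of all genes called. At 1 week 9 of the 10, all but Aspn, were lower than at 0-day, against 5.72% of all genes in either direction. Dcn was at 926, 934, 1045, 858 and 1032 CPM, below its 0-day range of 1612 to 2216 CPM (log2 fold change -1.0 ± 0.12, adjusted p = 3.23e-08). Fmod fell by 1.26, Prelp by 1.20 and Epyc by 1.45 on the log2 scale, and Aspn came to -0.61 ± 0.22 (adjusted p = 0.0562). The injured C57BL/6 joints of the same week, at 1359 to 1686 CPM of Dcn, lay above the contralateral libraries and overlapped the 0-day range, a description that was not tested.

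In STR/ort the contralateral joints went the other way. At 1 day Lum (0.59 ± 0.16) and Prelp (0.61 ± 0.16) were higher than at 0-day, against 9.92% of all genes, a count that ranged from 0 to 7 over all 3 strains when single libraries were left out: 0 without STR/ort 0-day replicate 4, 7 without replicate 3, and 1 without 0-day replicate 2 or without 1-day uninjured replicate 2 or 5. Both genes were lost with housekeeping scaling (Lum 0.56, Prelp 0.57) and with RUVg of 1 or 2 factors. With RUVg the count over all 3 strains was 1, a gene other than Lum and Prelp, and with 2 factors 1.15% of all genes were called in STR/ort. Lum was lost with RLE factors or only the groups compared (0.58 in each), and with the muscle covariate Prelp was lost (0.54, adjusted p = 0.0473) and Dcn gained (0.61). At 1 week 7 genes were higher, Dcn, Bgn, Lum, Aspn, Omd, Prelp and Chad, against 13.6% of all genes, with Omd at 1.02 ± 0.19 (adjusted p = 1.31e-05) and Lum at 0.92 ± 0.16 (adjusted p = 8.47e-06). Aspn (0.76 ± 0.24) and Bgn (0.64 ± 0.15) were no longer called without 1-week uninjured replicate 4, at 0.36 and 0.57, and Bgn also without 0-day replicate 2 (0.55). These contralateral libraries are also the reference of the 1-week injury comparison, in which Omd and Chad were lower and Dcn and Prelp were not called. Chad in the injured STR/ort joints of that week, at 219 to 480 CPM, spanned its 0-day range of 280 to 405 CPM.

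Tissue markers moved in these joints as well. In STR/ort all 9 muscle genes were lower than at 0-day at 1 day and at 1 week, with medians of -1.12 and -1.21 on the log2 scale. At 1 week 4 of 9 synovium genes (mean sum 11232 against 4771 CPM), 4 of 10 bone genes (3862 against 2584 CPM), 3 of 11 cartilage genes (6336 against 4206 CPM), 3 of 6 macrophage genes (2963 against 2020 CPM) and 2 of 5 tendon genes were higher than at 0-day in STR/ort. At 1 day 2 of 9 synovium genes were higher and 1 lower (sum 6886 to 9650 against 2860 to 6566 CPM), and 3 of 6 macrophage, 2 of 10 bone, 2 of 5 tendon and 1 of 11 cartilage genes were higher. In C57BL/6 at 1 week none of the 9 muscle genes was called, and 11 of 11 cartilage, 4 of 5 tendon, 9 of 10 bone, 6 of 9 synovium and 4 of 6 fat genes were lower than at 0-day. With the muscle covariate the 9 C57BL/6 falls of 1 week were still called, with Dcn at -1.05 ± 0.12 and Fmod at -1.27 ± 0.16, and Aspn (-0.73) was added, against 5.45% of all genes. In STR/ort 5 of the 7 rises were still called, against 5.48% of all genes. Chad (0.47 ± 0.24, adjusted p = 0.191) and Bgn (0.56 ± 0.17) were lost, and Omd came to 0.76 ± 0.22 (adjusted p = 0.0113). With RUVg of 2 factors 5.75% of all genes were called in STR/ort at 1 week. The part of tissue proportions in these changes was not tested.

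The number of genes called between strains in the contralateral joints varied between time points. A change of the strain differences with time was not tested, and the 2-week counts come from the second batch. STR/ort exceeded C57BL/6 in 5 genes at 1 day (Dcn, Bgn, Lum, Aspn and Prelp, against 10.5% of all genes), in 9 at 1 week (all but Ogn, against 22.2%) and in 5 at 2 weeks (Dcn, Fmod, Lum, Aspn and Prelp, against 9.78%), and none was lower at these times. At 1 week Prelp differed 3.88-fold (1.96 ± 0.15, adjusted p = 7.77e-12) and Dcn 3.41-fold (1.77 ± 0.11, adjusted p = 4.96e-13). Tissue markers differed between the same joints: all 11 cartilage, 9 of 10 bone, 7 of 9 synovium and 4 of 5 tendon genes were higher in STR/ort and 5 of 9 muscle genes lower. The mean sums were 6336 against 2306 CPM for cartilage, 3862 against 1628 CPM for bone, 11232 against 1327 CPM for synovium and 41547 against 69411 CPM for muscle, and their part in the differences was not tested. Without STR/ort uninjured replicate 2, Ogn (0.62) passed as well at 1 week. With RUVg of 1 or 2 factors the 1-week calls of Chad (0.31 and 0.22) and Epyc (-0.03 in both) were lost against C57BL/6, and those of Chad (0.63 and 0.37) and Epyc (0.50 and 0.51) against MRL/MpJ. Omd lost both calls with 2 factors (0.72 and 1.05), and Ogn gained a call against C57BL/6 (0.99 and 0.88). STR/ort exceeded MRL/MpJ in all 10 genes at 1 day and at 1 week and in 9 at 2 weeks, all but Ogn, against 22.6%, 24.4% and 13.8% of all genes. At 1 week 10 of 11 cartilage, 9 of 10 bone, 6 of 9 synovium and 5 of 5 tendon genes were also higher in STR/ort than in MRL/MpJ and 9 of 9 muscle genes lower, with mean sums of 6336 against 2229, 3862 against 1582, 11232 against 1601, 1115 against 324 and 41547 against 84643 CPM. At 2 weeks 9 of 11 cartilage genes were higher and 1 lower, 5 of 10 bone, 3 of 9 synovium (1781 against 841 CPM) and 3 of 5 tendon genes (312 against 159 CPM) were higher, and no muscle gene was called. The part of these tissues was not tested. C57BL/6 exceeded MRL/MpJ with edgeR in 9 genes at 1 day (all but Aspn, against 14.8%), in Omd alone at 1 week (0.78 ± 0.21, against 8.53%), and in Bgn, Omd, Prelp, Epyc and Chad at 2 weeks (against 9.83%). DESeq2 called 2 genes higher at 1 week and 6 at 2 weeks. At 1 day 10 of 11 cartilage genes were higher than in MRL/MpJ in both other strains, and 7 and 2 of 9 muscle genes were lower in STR/ort and C57BL/6. Each share of all genes here counts both directions. Several of these differences lay near the fold of 1.5 and were lost when single libraries were left out, namely Bgn (0.46 to 0.58) and Dcn (0.57) at 1 day and Lum (0.51 to 0.56) and Prelp (0.52 to 0.57) at 2 weeks between STR/ort and C57BL/6, Chad (0.52 to 0.57) and Dcn (0.58) at 2 weeks between STR/ort and MRL/MpJ, and Lum (0.56) at 1 day between C57BL/6 and MRL/MpJ. For STR/ort against C57BL/6 these were STR/ort uninjured replicates 2 and 4 and C57BL/6 uninjured replicates 3 and 4 at 1 day, and STR/ort replicates 2 and 4 and C57BL/6 replicates 1 and 3 at 2 weeks. Calls were gained as well. Fmod (0.58) at 1 day between STR/ort and C57BL/6 passed without C57BL/6 uninjured replicate 1 (0.66) and with the muscle covariate (0.69). Aspn (0.58) at 2 weeks between C57BL/6 and MRL/MpJ passed with the muscle covariate (0.60).

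Across the 100 libraries the 10 genes formed a graded series. Correlations were computed on log2 CPM after subtracting each batch mean, over libraries that share groups, depth and tissue content, and are given as a description. Fmod and Prelp, neighbours on chromosome 1, correlated at Pearson's r = 0.964, Bgn and Lum at 0.954, and Ogn and Aspn, from the chromosome 13 group, at 0.917. Omd, which lies between Aspn and Ogn, correlated with them at only 0.467 and 0.531, and was most like Chad (0.862). Epyc was also most like Chad (0.803) and not like its chromosome 10 neighbours Dcn (0.667) and Lum (0.552), and the lowest correlation of all was that of Aspn and Chad (0.209). Outside the family the genes most alike were Sdc2 for Dcn (0.97), Aebp1 for Bgn (0.973), Pcolce for Fmod (0.954), Matn2 for Lum (0.966), Comp for Prelp (0.964), Itgbl1 for Ogn (0.953) and Dkk3 for Aspn (0.97). For the other 3 they were Hapln1 for Epyc (0.945), Hhip for Chad (0.884) and Cd200 for Omd (0.849). Col2a1, the main collagen of cartilage, correlated with Epyc at 0.901 and with Aspn at 0.321, and the muscle gene Ckm correlated negatively with all 10, from -0.367 for Chad to -0.633 for Bgn.

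**Figure D5:**
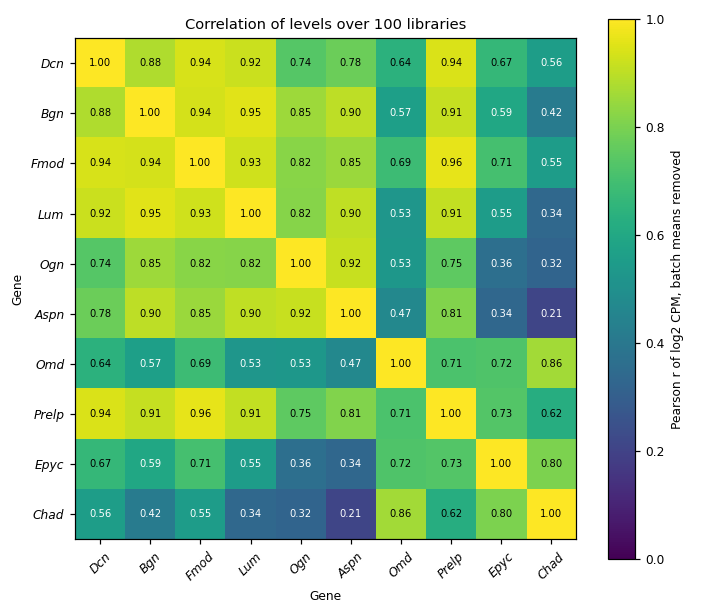
Pearson correlation of log2 CPM between the 10 genes over 100 libraries, after subtracting each batch mean. Dcn, Bgn, Fmod, Lum and Prelp correlated at 0.881 or more with each other, and Chad correlated with Aspn at 0.209.

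Most of the 13 fibrillar and fibril-associated collagen genes rose at 1 week. There were 8 that rose in MRL/MpJ, 9 in C57BL/6 and 10 in STR/ort, and none fell, where 2.93%, 4.75% and 5.67% of all genes were higher. Col14a1, itself a fibril-surface collagen, rose by 2.81 ± 0.17 in MRL/MpJ, and Col3a1, an early repair collagen, by 2.61 ± 0.23 in MRL/MpJ and 2.43 ± 0.21 in C57BL/6. In STR/ort the largest of these rises was that of Col12a1 (1.99 ± 0.21). At 1 day 7 of the 13 rose in C57BL/6, Col3a1 by 1.88 ± 0.18, while in STR/ort none rose and Col14a1 fell (-1.02 ± 0.17), against 4.26% of all genes higher in C57BL/6 and 2.7% lower in STR/ort. At 2 weeks 6, 7 and 10 of the 13 rose in MRL/MpJ, C57BL/6 and STR/ort, against 1.14%, 2.88% and 4.34% of all genes.

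Other genes of the pathway were counted at 1 week too, beside the same 2.93%, 4.75% and 5.67% of all genes called higher. Of 28 enzymes that build the sulfated sugar chains, 5, 7 and 7 rose at 1 week in MRL/MpJ, C57BL/6 and STR/ort, and 1 fell in STR/ort. Among them were Dsel in MRL/MpJ (1.00) and Chsy3 in C57BL/6 (1.48) and STR/ort (1.5), which make dermatan and chondroitin sulfate. Of 12 proteases, some of which cleave these proteins, 5, 6 and 7 rose, led by Mmp3 in MRL/MpJ (2.90) and C57BL/6 (2.35) and Adamts4 in STR/ort (1.72). Of 21 receptors and signalling partners, 3, 4 and 2 rose, with Cd14 (0.92) leading in MRL/MpJ and Egfr (1.21) in C57BL/6. Of 9 further small leucine-rich proteoglycan genes, 2, 3 and 3 rose and none fell, Kera (keratocan) by 2.05 in MRL/MpJ, 1.32 in C57BL/6 and 1.60 in STR/ort. All values in this paragraph are log2 fold changes of injured against uninjured joints.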

How the data were processed

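Poly(A) RNA of whole knee joints was sequenced by the authors, who aligned reads to mm10 with TopHat2 (version 2.0.11) and deposited raw counts per RefSeq gene from featureCounts; whether strand was used is not given in the sources used here. The deposited counts are whole numbers that were not normalized. Of 17313 rows, 3 repeated names were dropped, 24 symbols had been turned into dates, and a minimum of 2 counts in 5 libraries removed 0 genes. Of 190 pairs of libraries within groups, 0 were identical. CPM values (counts scaled to library size) used TMM factors over all 100 libraries. Tests used edgeR (version 4.0.16, R 4.3.3), glmQLFit and glmQLFTest, with 1 fit per time point and 1 of the 70 libraries of batch 1 for contrasts over time, Benjamini-Hochberg adjustment over 17310 genes, and the study's thresholds (adjusted p under 0.05, fold above 1.5). The study scaled with RUVSeq and housekeeping genes. Its number of factors is not given in the sources used here, so TMM was the main scaling and RUVg with 1 or 2 factors on 25 housekeeping genes an alternative, written for this work after the published method. Other alternatives were RLE factors, housekeeping scaling, DESeq2 (version 1.42.0), filterByExpr, no filter, only the groups compared, a replicate block, each library left out, and a muscle covariate chosen after seeing the data. All members, the gene lists and the rule for naming list genes (at most 3 called genes with the largest change) were chosen with earlier results of these data known. Each way of fitting, apart from those on fewer libraries, was tested on simulated 1-day counts, for the STR/ort injury change alone. Interval estimates are standard errors over libraries, and totals of 6182016 to 20986027 counts a library left Epyc, at mean levels of 2.58 to 22.9 CPM, the least precise of the 10 genes. At 2 weeks the labels name the same animal for both joints, and correlations of same-numbered joints were 0.133 to 0.262 in C57BL/6 and STR/ort and -0.161 to 0.076 in MRL/MpJ. At 1 week all 4 STR/ort pairs were over 0.1 (0.102 to 0.231). The other numbers at 1 day and 1 week were not taken as pairs. Promoters came from RefSeq tables of GRCm38.p6, which matched 8 of the 10 genes.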

Additional observations from a re-analysis of the deposited data

Results flagged for a closer look

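Single libraries lay far from the others of their group by Dixon's test in 14 of 210 combinations of a gene and a group, where chance gives about 10.5, and these came from 10 libraries. C57BL/6 1-week injured replicate 5 was high in Bgn (3353 CPM), Fmod (605), Ogn (191) and Prelp (423). C57BL/6 0-day replicate 4 was high in Bgn (2262) and Fmod (655). STR/ort 1-day injured replicate 5 was high in Aspn (185), STR/ort 1-week injured replicate 1 in Ogn (417), STR/ort 1-week uninjured replicate 4 in Omd (130), STR/ort 2-week uninjured replicate 4 in Bgn (520) and C57BL/6 1-week uninjured replicate 3 in Ogn (95.9). Low values were Dcn in STR/ort 1-week uninjured replicate 3 (2222), Bgn in MRL/MpJ 2-week injured replicate 3 (259) and Prelp in MRL/MpJ 1-day injured replicate 3 (98.1).

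The injury change differed between strains, tested as an interaction in edgeR, in 8 cases. At 1 day STR/ort minus C57BL/6 gave -0.91 for Bgn, -0.81 for Lum, -1.17 for Ogn and -2.19 for Aspn on the log2 scale, and C57BL/6 minus MRL/MpJ gave 1.38 for Aspn. At 1 week STR/ort minus C57BL/6 gave -0.96 for Prelp, and STR/ort minus MRL/MpJ gave -0.76 for Dcn and -1.30 for Prelp.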

How the results depend on the processing

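Of 390 fold changes of the 10 genes, 175 were called, and 134 of these kept the call in every alternative run. No call was lost with DESeq2, filterByExpr or no filter, 1 with RLE factors, 4 with housekeeping scaling, 10 and 30 with RUVg of 1 and 2 factors, 13 with the muscle covariate, chosen after seeing the data, and 2 of 90 fold changes with only the groups compared. Signs turned in the 0-day difference of STR/ort and C57BL/6 with RUVg of 2 factors (Lum 0.72, Prelp 0.82, Omd 0.13) and with the muscle covariate (Chad 0.14, Omd 0.0), in Epyc between C57BL/6 and MRL/MpJ at 0-day (-1.27 and -0.16 in the same order), and in Epyc between contralateral STR/ort and C57BL/6 joints at 1 week (-0.03 with RUVg of 1 or 2 factors). The cause was not tested.

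With RUVg of 2 factors, counts moved at 0-day for STR/ort against C57BL/6 to 2 higher and 0 lower, for C57BL/6 against MRL/MpJ from 10 to 1 higher, at 1 day in C57BL/6 to 4 higher and in STR/ort to 3 lower, at 1 week in C57BL/6 to 1 lower, and over 3 time points to 8 interactions of STR/ort with C57BL/6 and 2 of C57BL/6 with MRL/MpJ, which were also the DESeq2 counts. With the muscle covariate these were 0 lower, 5 higher, 4 higher, 3 lower and 1 lower, with 1 lower in C57BL/6 at 1 day, 4 interactions of STR/ort with MRL/MpJ and 2 of C57BL/6 with MRL/MpJ. RUVg of 1 factor gave 1 lower in C57BL/6 at 1 day and at 1 week, and housekeeping scaling 1 lower at 1 day. Contralateral calls at 1 day against 0-day went from 2 to 1 with RLE or RUVg and to 0 with housekeeping scaling. The gene called with RUVg was neither Lum nor Prelp.

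Leaving out 1 library at a time turned the sign of no called fold change and lost a call for 17. Counts ranged from 2 to 3 higher and 0 to 3 lower at 1 day in C57BL/6, 3 to 6 lower at 1 day and 1 to 2 lower at 1 week in STR/ort, 5 to 8, 2 to 5 and 1 to 2 interactions (STR/ort with C57BL/6, STR/ort with MRL/MpJ, C57BL/6 with MRL/MpJ), and 0 to 7 contralateral calls at 1 day. The interaction counts were 8 without C57BL/6 1-day injured replicate 3, STR/ort 1-day injured replicate 5 or uninjured replicate 3, and for C57BL/6 with MRL/MpJ 2 without MRL/MpJ injured replicate 5, C57BL/6 injured replicate 2, C57BL/6 uninjured replicate 1 or STR/ort injured replicate 5.

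With the replicate block, interaction counts over 3 time points were 10, 6 and 2 in place of 5, 2 and 1. Beyond the 2-week changes given with the results, the block gained Prelp and Omd at 1 day and Dcn (-0.64 ± 0.16), Chad (-0.67 ± 0.15) and Omd (-0.71 ± 0.13) at 1 week for STR/ort against C57BL/6, Omd at 1 day and Chad (-0.84 ± 0.16), Omd (-0.76 ± 0.15) and Ogn (0.68 ± 0.18) at 1 week against MRL/MpJ, and Ogn at 1 day for C57BL/6 against MRL/MpJ, and it changed no other call. Correlations over 0.1 were seen in 4 of 4 STR/ort, 2 of 5 C57BL/6 and 0 of 4 MRL/MpJ pairs of numbers at 1 week, so the numbers were not taken to pair the joints of these interactions. At 1 day the best match of a joint was its own number in 3 of 5 pairs of each strain. Precision is limited by groups of 4 or 5 libraries and, for Epyc at 2.58 to 22.9 CPM, by low counts.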
